A study of Mus musculus with 15 samples.

Results

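Genes that set up the roof plate and its derivative, the choroid plexus epithelium, were followed across normal choroid plexus and 2 kinds of choroid plexus tumour in mice. Of 10 genes chosen by name, the 9 with a probe set paired with exactly 1 gene symbol were measured, out of 22180 genes tested in all: Otx2, Otx1, Lmx1a, Lmx1b, Msx2, Zic1, Gdf7, Mab21l1 and Meis1. Both probe sets of Msx1 were also paired with its antisense transcript Msx1os, so Msx1 was not analysed here. The set held 5 arrays each of normal tissue (Myc/Myc; p53fl/fl, no Cre), papilloma (Atoh1-Cre; Myc/Myc) and carcinoma (Atoh1-Cre; Myc/Myc; p53fl/fl), all on a mixed C57Bl/6 and 129 background. All 3 groups carried the Myc alleles, and the floxed p53 alleles were shared by normal tissue and carcinoma. The Atoh1 regulatory sequence drives Cre in the lineage in which Atoh1 is active, and the labels give no age. Diagnosis and the floxed p53 genotype cannot be told apart between the tumour types. Values are log2 RMA summaries of a probe set, so a difference of 1 is a doubling, and each is given for replicates 1 to 5 in that order.

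The roof plate is the dorsal midline of the neural tube, a signalling centre that secretes BMP and Wnt proteins. Part of it folds into the ventricles and becomes the choroid plexus, whose epithelium makes cerebrospinal fluid. Otx2 is needed for the plexus to form and for its epithelium to keep its secretory programme, Lmx1a specifies the roof plate, Msx1 and Msx2 respond to BMP signals, and Gdf7 is a BMP-family ligand of roof plate cells from which plexus epithelium descends.

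The regulatory starts of these genes differ in letters, and 4 are shown because they belong to the factor that marks the epithelium (Otx2), the member that separates the tumour types downwards (Msx2), the member with the largest fall (Gdf7) and the member with a binding core of the Myc family (Zic1). They are the 250 bases upstream of the RefSeq start, 5′ to 3′ on the gene's strand, from GRCm38.p6. Otx2 has 4 such windows, and the outermost is printed. Capitals mark matches on either strand to CACGTG (an E-box, the Myc core), TAATCC (the core of Otx-type homeodomains), TAATTA (the core of many other homeodomains) or TGACAG (the Meis core).
Otx2, chr14:48667645-48667894, minus strand: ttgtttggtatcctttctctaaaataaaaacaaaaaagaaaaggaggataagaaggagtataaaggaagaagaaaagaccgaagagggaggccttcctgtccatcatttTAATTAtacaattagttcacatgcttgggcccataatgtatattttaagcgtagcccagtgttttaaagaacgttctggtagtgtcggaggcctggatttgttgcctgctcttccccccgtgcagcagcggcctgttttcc
Msx2, chr13:53472781-53473030, minus strand: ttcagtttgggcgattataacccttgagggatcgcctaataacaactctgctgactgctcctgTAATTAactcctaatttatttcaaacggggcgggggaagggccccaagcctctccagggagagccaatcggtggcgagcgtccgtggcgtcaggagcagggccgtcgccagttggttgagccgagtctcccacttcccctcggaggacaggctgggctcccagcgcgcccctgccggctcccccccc
Gdf7, chr12:8301955-8302204, minus strand: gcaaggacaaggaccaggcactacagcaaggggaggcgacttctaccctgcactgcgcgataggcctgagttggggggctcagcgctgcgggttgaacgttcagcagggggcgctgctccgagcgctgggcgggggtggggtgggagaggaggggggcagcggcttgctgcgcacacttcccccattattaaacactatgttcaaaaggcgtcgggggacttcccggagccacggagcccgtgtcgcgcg
Zic1, chr9:91365769-91366018, minus strand: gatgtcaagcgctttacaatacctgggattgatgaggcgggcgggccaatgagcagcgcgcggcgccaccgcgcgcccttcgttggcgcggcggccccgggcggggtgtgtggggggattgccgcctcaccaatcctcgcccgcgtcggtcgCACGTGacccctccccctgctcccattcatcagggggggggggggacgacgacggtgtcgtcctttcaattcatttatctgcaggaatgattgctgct

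The E-box was found in the window of Zic1 alone among the 7 measured members whose windows were searched, and in 6% of 32851 promoter windows of the same length. TAATTA was found in Msx2 and in 2 of the 4 Otx2 windows, against 4.8% of all windows. TAATCC was found in 1 of those same 2 Otx2 windows, which is not the printed one (6.3% of all windows), and TGACAG in none of the members' windows (15.9%). The printed Gdf7 window holds none of the 4 cores, and its GC content is 66%, against a median of 52.4% over all windows. These matches describe letters and say nothing of binding.

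Of the engineered genes, Myc rose in both tumour types, from 7.65 ± 0.09 (SD, n = 5) in the normal samples to 8.26 ± 0.17 in papilloma (adjusted p = 0.00228) and 8.46 ± 0.34 in carcinoma (adjusted p = 0.000166), and Trp53 was not analysed here. Plexus epithelial genes were high in every array. Ttr, the main product of plexus epithelium, averaged 14.56 in the normal samples against 14.47 (papilloma) and 14.46 (carcinoma), and all 24 measured epithelial genes averaged 12.90 to 12.97 over the normal arrays, 12.34 to 12.53 over papillomas and 11.99 to 12.52 over carcinomas. Ttr lies at the top of the scale (array maxima 14.48 to 14.58), where a difference may be understated. Every tumour array was below every normal array in Ttr. The differences of -0.09 in papilloma (limma adjusted p = 0.198) and -0.11 in carcinoma (adjusted p = 0.116) did not pass. Of those 24 genes, 17 fell and 1 rose in carcinoma, and 12 fell in papilloma (limma adjusted p under 0.05). Among all genes, 19.2% fell and 18.7% rose in carcinoma, and 16.3% fell and 17% rose in papilloma. Other cell types moved too: multiciliated cell genes fell in 9 of 9 cases in both tumour types, meningeal genes in 7 of 10 in both (with 2 that rose in carcinoma and 1 in papilloma), and pituitary genes in 5 of 7 in both. The pituitary mean was 7.46 to 8.23 in normal arrays and 6.09 to 6.74 in tumour arrays. In normal tissue it rested mainly on Gh (10.03), Lhb (9.84) and Prl (8.86, SD 2.19). Cga (6.31), Fshb (6.67) and Tshb (5.87) were below the array medians there and are not shown to be above background. Normal arrays 2 to 5 held both Xist and Y-linked transcripts, and none of the 10 tumour arrays did. In such bulk tissue, fewer cells of a type and less RNA per cell cannot be told apart.

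**Figure D1:**
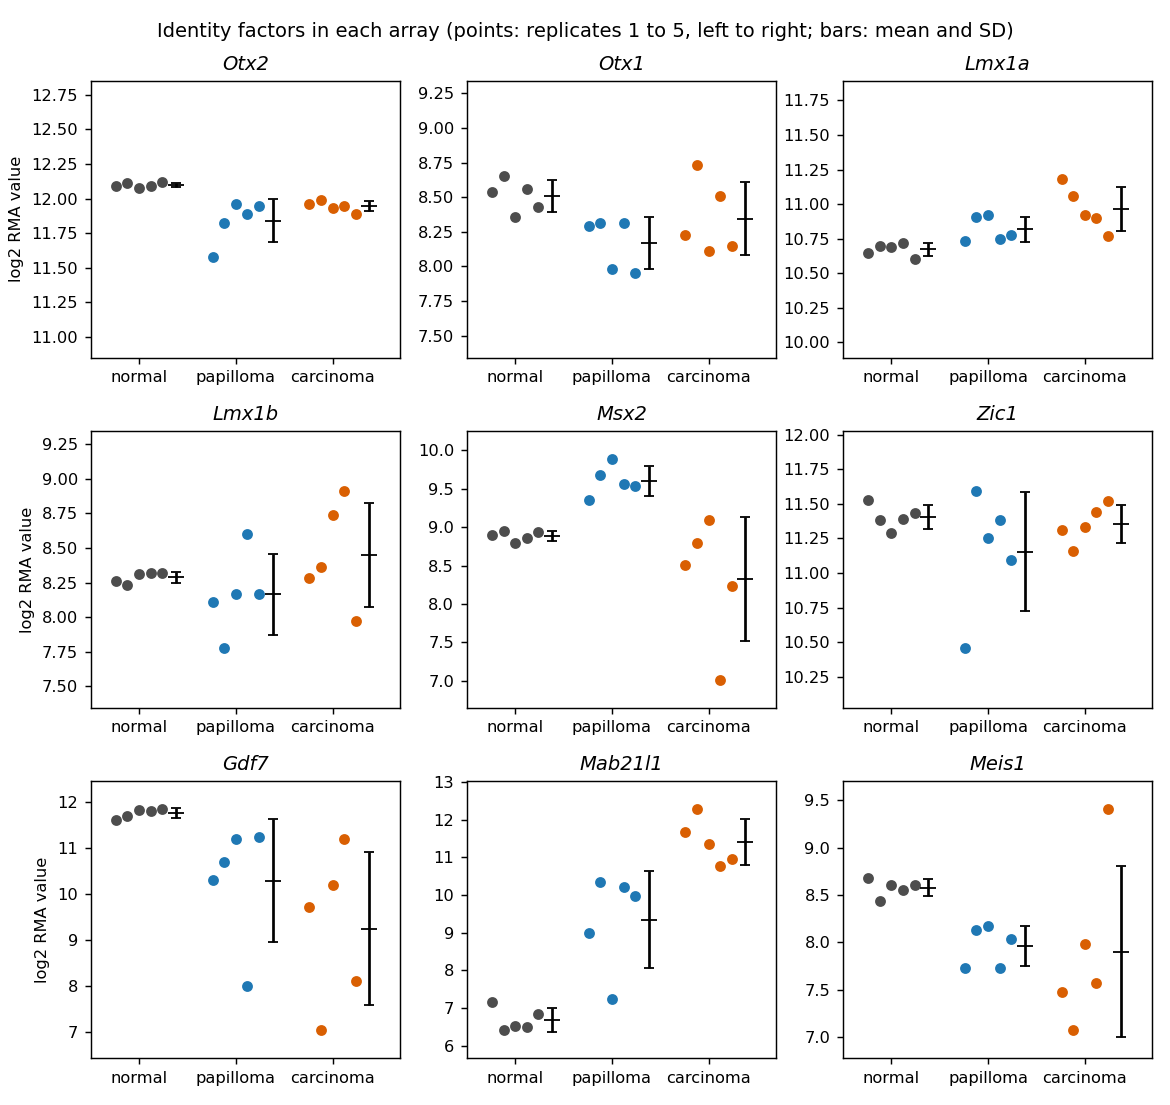
Log2 RMA value of each of the 9 genes in every array, by group (x axis), with replicates 1 to 5 from left to right and the mean and SD beside them; the y axes differ in range. Mab21l1 is higher in every tumour array than in every normal array, Gdf7 is lower in every tumour array, and the normal arrays lie close together for most genes.

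The genes that passed went in both directions. In carcinoma, Mab21l1 and Lmx1a rose and Gdf7 fell, and in papilloma Mab21l1 rose and the paralogues Otx2 and Otx1 fell. That is 3 of 9 in each comparison, close to the share of all genes that passed (37.9% in carcinoma, 18.7% higher and 19.2% lower, and 33.2% in papilloma, 17% higher and 16.3% lower, limma adjusted p under 0.05). Between the tumour types, Mab21l1 was higher and Msx2 lower in carcinoma, 2 of 9 against 11.4% of all genes (6.24% higher and 5.17% lower). The arrays did not overlap for 2 genes that were higher and 2 that were lower in carcinoma than in normal tissue, against 29.9% of all genes (14.6% higher and 15.2% lower). In papilloma this held for 3 higher and 4 lower genes, against 32.1% (16.3% higher and 15.8% lower), and between the tumour types for 1 higher and 1 lower gene, against 7.9% (4.52% higher and 3.39% lower). The median log2 difference of the 9 was -0.16 in carcinoma and -0.25 in papilloma against normal tissue, and 0.15 between the tumour types, where all genes had medians of -0.02, 0.01 and -0.03. Both tumour comparisons use the same normal arrays.

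**Figure D2:**
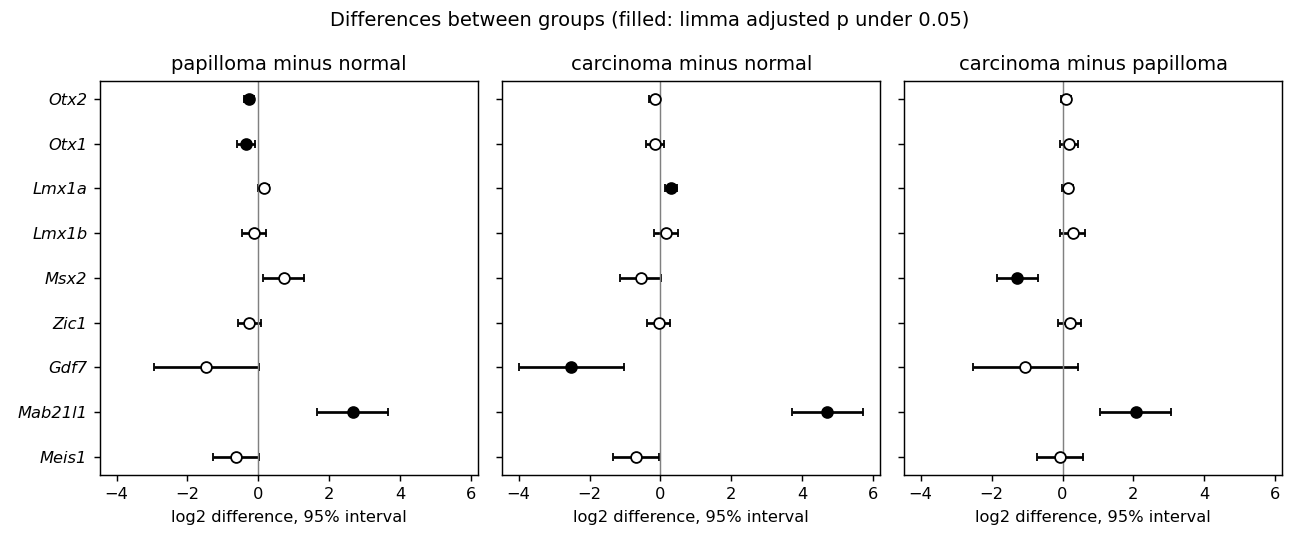
Log2 difference of each gene with its 95% interval (x axis) in the 3 comparisons; filled points have a limma adjusted p under 0.05. Mab21l1 differs in all 3 comparisons, while the intervals of Lmx1b and Zic1 include 0 in all 3.

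Otx2, the homeodomain factor that marks this epithelium, stayed near its normal level. Its probe set (17305830, chromosome 14) measured 12.09, 12.11, 12.08, 12.09 and 12.12 in normal tissue. The papillomas measured 11.58, 11.82, 11.96, 11.89 and 11.95, and the carcinomas 11.96, 11.99, 11.93, 11.95 and 11.89. Every tumour array was below every normal array, but by little. Otx2 fell in papilloma by 0.26 on the log2 scale (SE 0.07, adjusted p = 0.00882, 1.2-fold). The difference in carcinoma was -0.16 (95% interval -0.31 to -0.01, adjusted p = 0.099). The normal arrays spread by an SD of only 0.01, smaller than in all but 0.2% of genes. The papilloma call was lost with an unpooled variance (adjusted p = 0.056), and the carcinoma difference passed that way (adjusted p = 0.00289), after quantile normalization (adjusted p = 0.0478) and without papilloma array 1 (adjusted p = 0.0324).

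Otx1, the paralogue of Otx2, moved the same way on a dimmer probe set (17260959, chromosome 11). Normal arrays measured 8.54, 8.65, 8.36, 8.56 and 8.43, papillomas 8.29, 8.31, 7.98, 8.31 and 7.95, and carcinomas 8.23, 8.73, 8.11, 8.51 and 8.15. Papillomas lay below all normal arrays, while carcinomas spanned the normal range on both sides. Otx1 fell in papilloma by 0.34 on the log2 scale (SE 0.12, adjusted p = 0.0398, 1.27-fold), and its difference in carcinoma was -0.16 (95% interval -0.42 to 0.09, adjusted p = 0.326). The papilloma call was lost without normal array 1, 2, 4 or 5 or papilloma array 3 or 5 (-0.36 to -0.29, adjusted p = 0.0515 to 0.104). It was also lost after quantile normalization or at a common median (adjusted p = 0.0628 and 0.0627) and when all probe sets were tested (adjusted p = 0.0564).

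Lmx1a, the LIM-homeodomain factor that specifies the roof plate, rose modestly in carcinoma. Its probe set (17219127, chromosome 1) measured 10.65, 10.70, 10.69, 10.72 and 10.60 in normal tissue. Papillomas measured 10.73, 10.91, 10.92, 10.75 and 10.78, and carcinomas 11.18, 11.06, 10.92, 10.90 and 10.77. All 10 tumour arrays were above all normal arrays, and the tumour types overlapped. The rise was 0.30 in carcinoma (SE 0.08, adjusted p = 0.00558, 1.23-fold). In papilloma the difference was 0.15 (95% interval -0.02 to 0.31, adjusted p = 0.172), and it passed only with an unpooled variance (adjusted p = 0.0477). The carcinoma call held in every setting tried, with values of 0.24 to 0.35 when single arrays were left out. Lmx1a thus went up in the same carcinomas in which 17 of 24 plexus epithelial genes went down.

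Lmx1b, its paralogue, which patterns the midbrain-hindbrain boundary and dorsal limb, passed in no comparison. It measured 8.26, 8.23, 8.31, 8.32 and 8.32 in normal tissue, 8.11, 7.78, 8.17, 8.60 and 8.17 in papilloma, and 8.28, 8.36, 8.74, 8.91 and 7.97 in carcinoma. Tumour arrays lay on both sides of the normal ones. The differences from normal were 0.16 in carcinoma (95% interval -0.18 to 0.51, adjusted p = 0.478) and -0.12 in papilloma (-0.47 to 0.22, adjusted p = 0.638), so changes past 0.51 on the log2 scale in either direction lie outside both intervals.

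Msx2, a BMP-responsive homeodomain repressor, separated the tumour types. Its probe set (17292671, chromosome 13) measured 8.90, 8.95, 8.79, 8.86 and 8.94 in normal tissue, 9.35, 9.68, 9.89, 9.56 and 9.53 in papilloma, and 8.51, 8.79, 9.10, 7.01 and 8.23 in carcinoma. Every papilloma was above every normal array and above every carcinoma, and only carcinoma array 3 exceeded the normal range. Msx2 was lower in carcinoma than in papilloma by 1.27 on the log2 scale (difference -1.27, SE 0.27, adjusted p = 0.0065, 2.42-fold). The arrays of the tumour types did not overlap. This difference held in every setting but the unpooled variance, with which it had an adjusted p of 0.205.

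Against normal tissue, Msx2 did not pass in either tumour type. The papilloma difference was 0.71 (95% interval 0.13 to 1.29, adjusted p = 0.056) and the carcinoma difference -0.56 (-1.14 to 0.02, adjusted p = 0.125). Carcinoma arrays 3 and 4 decided much of this. Without array 4, at 7.01, the papilloma difference passed (adjusted p = 0.000678), as it did without array 3 (adjusted p = 0.0337), and without array 3 the carcinoma difference was -0.75 and passed (adjusted p = 0.0323). Without array 4 the carcinoma difference was instead -0.23 (adjusted p = 0.237). The papilloma difference also passed when only papilloma and normal arrays were fitted (adjusted p = 5.84e-05), with array weights (adjusted p = 0.00126), with an unpooled variance (adjusted p = 0.00355), with dim genes left out (adjusted p = 0.0422), with chromosome-wide shifts removed (adjusted p = 0.0481) and after setting all arrays to the same median (adjusted p = 0.043).

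Zic1, a zinc finger factor of the dorsal neural tube that is also strongly expressed by cerebellar granule cells, passed in no comparison over all arrays. It measured 11.53, 11.38, 11.29, 11.39 and 11.43 in normal tissue, 10.46, 11.59, 11.25, 11.38 and 11.09 in papilloma, and 11.31, 11.16, 11.33, 11.44 and 11.52 in carcinoma. Papilloma array 1 was the lowest of the 15, and papilloma array 2 the highest. The differences from normal were -0.05 in carcinoma (95% interval -0.39 to 0.28, adjusted p = 0.833) and -0.25 in papilloma (-0.58 to 0.08, adjusted p = 0.262).

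Papilloma arrays 2 and 4 stood apart in granule cell genes, a cell type that expresses Zic1. The mean of 6 such genes (Gabra6, Neurod1, Cbln1, Cbln3, Barhl1 and Reln) was 9.18 and 8.36 in these arrays, 6.37 to 6.60 in the other papillomas, 6.93 to 7.49 in normal tissue and 6.31 to 7.09 in carcinoma. None of the 6 passed in papilloma against normal tissue. The papillomas with the most granule cell signal were the 2 with the highest Zic1. Without them, Zic1 was lower in papilloma by 0.47 on the log2 scale (difference -0.47, adjusted p = 0.0258, 3 papillomas). That value leans on papilloma array 1: without this array alone, the papilloma difference was -0.08 (adjusted p = 0.653). Arrays 2 and 4 were also the highest papillomas in mature neuron genes (8.98 and 8.21, the others 6.95 to 7.21) and astrocyte genes (9.90 and 9.45, the others 8.65 to 8.96). The part of these cell types in the Zic1 values was not tested.

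**Figure D3:**
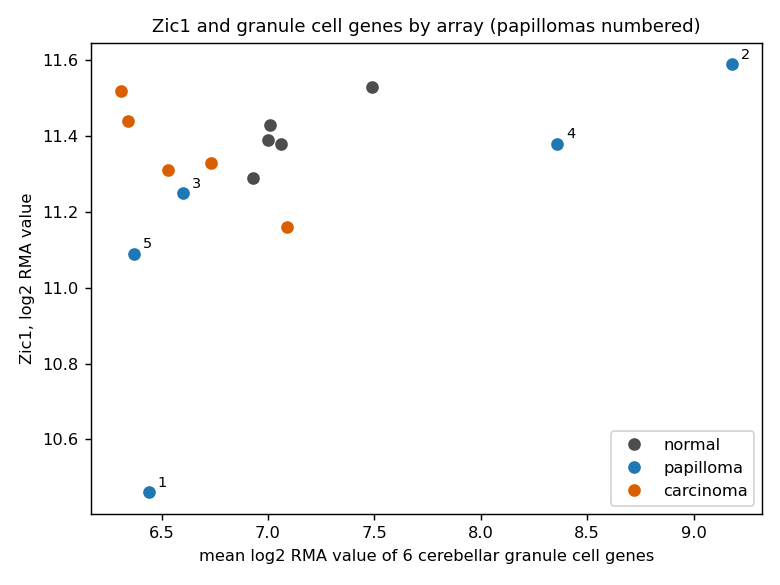
Zic1 (y axis) against the mean of 6 cerebellar granule cell genes (x axis), both as log2 RMA values, for all 15 arrays coloured by group, with papilloma replicate numbers. Papilloma arrays 2 and 4 lie far to the right at 9.18 and 8.36, and the papillomas left of 7 are lower in Zic1 than both.

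Gdf7, the roof plate BMP ligand, showed the largest fall of the 9 genes and the widest spread among tumours. Its probe set (17279916, chromosome 12) measured 11.59, 11.69, 11.81, 11.80 and 11.84 in normal tissue. The papillomas measured 10.29, 10.69, 11.19, 8.0 and 11.23, and the carcinomas 9.70, 7.03, 10.18, 11.19 and 8.09. All 10 tumours were below all 5 normal samples. Single tumours ranged from slightly reduced (papilloma arrays 3 and 5 and carcinoma array 4) to 8.09 or below (papilloma array 4 and carcinoma arrays 2 and 5).

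Gdf7 fell by 2.51 on the log2 scale in carcinoma (SE 0.69, adjusted p = 0.00854, 5.7-fold). In papilloma the difference was -1.47 (95% interval -2.94 to 0.01, adjusted p = 0.125), and the tumour types did not differ beyond their spread (-1.05, 95% interval -2.52 to 0.43, adjusted p = 0.391). The highest and lowest carcinoma differed 17.9-fold and the papillomas 9.44-fold, against 1.18-fold in normal tissue. Its SD exceeded that of 99.8% of genes among papillomas and 99.9% among carcinomas. Without papilloma arrays 2 and 4, the papilloma difference was -0.84 (adjusted p = 0.419), and without array 4 alone it was -0.89 (adjusted p = 0.323).

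Gdf7 lies on chromosome 12, whose genes were shifted down as a whole in carcinoma arrays 1 to 3. The median shifts there were -0.18, -0.19 and -0.28 on the log2 scale. Carcinoma arrays 4 and 5 were shifted little (-0.01 and -0.04). With these shifts removed, Gdf7 still fell in carcinoma by 2.37 on the log2 scale (adjusted p = 0.0124). The carcinoma call was lost only with an unpooled variance (adjusted p = 0.0788). The papilloma difference passed with array weights (adjusted p = 0.041) and when papilloma and normal arrays were fitted alone (adjusted p = 0.0414).

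Mab21l1, a MAB21-family protein needed for eye and skull development, had the largest change of the 9 genes. Its probe set (17397740, chromosome 3) measured 7.16, 6.41, 6.52, 6.50 and 6.85 in normal tissue, around or below the array medians of 6.79 to 6.90. Papillomas measured 8.99, 10.33, 7.24, 10.21 and 9.96, and carcinomas 11.67, 12.28, 11.34, 10.78 and 10.95. The groups formed 3 steps without overlap, although papilloma array 3 was only 0.08 above the highest normal array.

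Mab21l1 rose by 4.71 in carcinoma (SE 0.47, adjusted p = 8.26e-07, 26.3-fold) and by 2.66 in papilloma (SE 0.47, adjusted p = 0.000325, 6.3-fold). It was 2.06 higher in carcinoma than in papilloma (SE 0.47, adjusted p = 0.00991, 4.17-fold), a difference lost with an unpooled variance (adjusted p = 0.194). The normal level was below the array median in 4 of 5 arrays and is not shown to be above background, so both folds against normal tissue may be minimum values. Without papilloma arrays 2 and 4, which are also the highest papillomas, the papilloma rise was 2.04 (adjusted p = 0.00456).

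Meis1, a TALE homeodomain partner of Hox and Pbx proteins, was lower in most tumours with 1 exception. Its probe set (17260815, chromosome 11) measured 8.68, 8.44, 8.61, 8.55 and 8.61 in normal tissue, 7.73, 8.13, 8.17, 7.73 and 8.04 in papilloma, and 7.47, 7.07, 7.98, 7.57 and 9.41 in carcinoma. All papillomas and carcinoma arrays 1 to 4 were below all normal arrays, and carcinoma array 5 was above them. Over all arrays neither difference passed: -0.68 in carcinoma (95% interval -1.33 to -0.03, adjusted p = 0.0959) and -0.62 in papilloma (-1.27 to 0.03, adjusted p = 0.144). Without carcinoma array 5, Meis1 fell in carcinoma by 1.06 on the log2 scale (adjusted p = 4.41e-05) and in papilloma by 0.62 (adjusted p = 0.00276), since the spread is shared by the 3 groups. Array weights gave the same calls (adjusted p = 0.00649 and 0.0275). The papilloma difference passed as well when papilloma and normal arrays were fitted alone (adjusted p = 0.000363) and with an unpooled variance (adjusted p = 0.0069).

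A larger spread in tumours than in normal tissue was shared by the 9 genes. The SD was above that of normal tissue for 9 of 9 genes in papilloma and in carcinoma, by a median of 4.13 and 3.24 times. Of all genes, 61.5% and 72.2% had a larger SD, with median ratios of 1.21 and 1.59. Every member but Mab21l1 was above the array median in all 15 arrays, and a comparison with genes of like level was not made. A wide spread beside other genes was not shared. In carcinoma, 0.7% of genes had a smaller SD than Otx2, 28.6% than Zic1 and 37.2% than Lmx1a, against 70.4% to 99.9% for the other members. In papilloma this share was 20% for Lmx1a and 54.3% to 99.8% for the others. In normal tissue it was 0.2% to 44.5%, except for Mab21l1 (94.8%). The tumours that stood out differed from gene to gene. In carcinoma, array 4 was lowest in Msx2 but highest in Gdf7, array 5 was highest in Meis1, and array 2 was lowest in Gdf7 and Meis1 but highest in Mab21l1. As given above, 4 of 5 normal arrays and 0 of 10 tumour arrays held transcripts of both sexes. The labels do not say whether tissue was pooled, and its part in the spread was not tested.

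The signals of the roof plate and its forebrain counterpart, the cortical hem, gave a further 14 genes. Of these, 6 fell and 1 rose in carcinoma, where 19.2% of all genes fell and 18.7% rose. In papilloma 7 fell and 2 rose, where 16.3% of all genes fell and 17% rose. The median difference of the 14 was -0.32 in both. Bmp6 had the largest difference: its level went from 12.54 in normal tissue to 9.62 in carcinoma (-2.92, SE 0.46, adjusted p = 8.41e-05) and 10.02 in papilloma (-2.53, adjusted p = 0.000386). Bmp5 fell in both (-1.66 in carcinoma and -1.58 in papilloma), and so did the Wnt enhancer Rspo3 (-1.46 and -1.38). The tumour means of Bmp5 (6.39 and 6.48) and Rspo3 (6.31 and 6.39) were below the array medians, so these falls may be minimum values. Wnt5a, a non-canonical Wnt ligand, rose by 0.83 and 1.10, and Rspo2 rose by 0.53 in papilloma. Bmp4 went from 10.41 in normal tissue to 9.83 in papilloma and 10.42 in carcinoma, the 1 signal gene that differed between tumour types (0.60 higher in carcinoma). Wnt1 and Wnt3a, the classical dorsal midline Wnts, were at 6.79 to 7.02 in all groups and passed in no comparison. Their levels were close to the array medians of 6.79 to 6.90, so their probe sets are not shown to be above background. Meningeal cells also make several of these signals, and 7 of 10 meningeal genes fell in each tumour type, while Crabp2 (up 2.10) and Foxc1 (up 1.26) rose in carcinoma and Ogn (up 0.58) in papilloma, with list means of 8.98 to 9.18 in normal tissue, 7.96 to 8.37 in papilloma and 8.25 to 8.73 in carcinoma. Their part was not tested.

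Of 7 genes that BMP signals induce, 3 fell in carcinoma (Smad6, -0.76; Smad7, -0.42; Id2, -0.34) and 5 in papilloma, led by Id4 (-0.87), Smad6 (-0.80) and Id3 (-0.46). None rose against normal tissue, and Id4 was 0.60 higher in carcinoma than in papilloma. Of all genes, 19.2% fell in carcinoma and 16.3% in papilloma, and 37.9% and 33.2% passed in either direction. Msx2, itself a BMP-responsive gene, lay above all normal arrays in papilloma. Among 10 BMP receptors and Smads, 4 rose in carcinoma, led by the receptor Bmpr1b (up 1.09), Smad9 (up 0.67) and Smad4 (up 0.45), and 3 rose in papilloma, led by Bmpr1b (up 0.88), Smad9 (up 0.44) and the receptor Acvr1 (up 0.23). Smad4 was also 0.28 higher in carcinoma than in papilloma. The receptor Acvr2a fell by 0.30 on the log2 scale in both. Thus 5 of these 10 genes passed in carcinoma and 4 in papilloma, beside 37.9% and 33.2% of all genes.

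**Figure D4:**
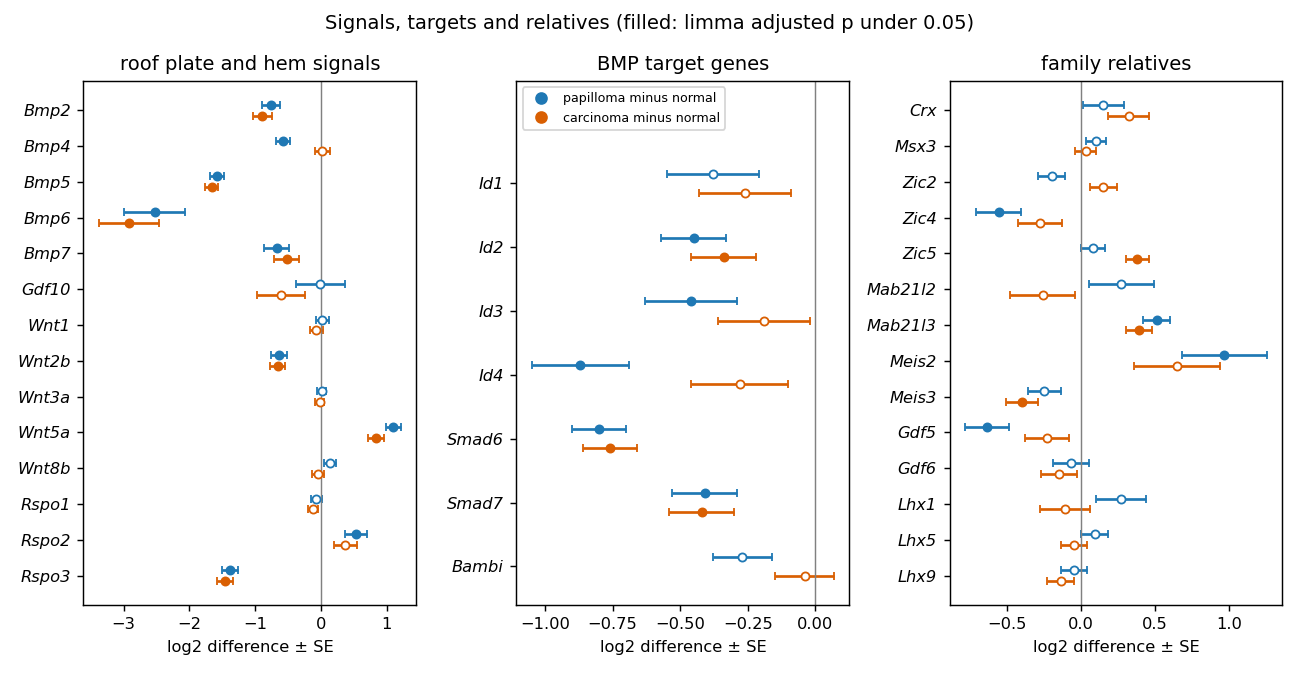
Log2 difference ± SE against normal tissue (x axis) for roof plate and hem signals, BMP target genes and relatives of the 9 identity genes, in papilloma and carcinoma; filled points have a limma adjusted p under 0.05. Bmp6, Bmp5 and Rspo3 lie far to the left in both tumour types, and the relatives stay within 1 of 0.

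Of 14 measured relatives of the identity genes, 2 rose and 1 fell in carcinoma, and 2 rose and 2 fell in papilloma, where 37.9% and 33.2% of all genes passed. Zic5, a zinc finger paralogue of Zic1, rose by 0.38 in carcinoma and was 0.29 higher there than in papilloma. Zic2, another paralogue, was 0.35 higher in carcinoma than in papilloma, and Zic4, which neighbours Zic1 in the genome, fell in papilloma by 0.56 on the log2 scale. Meis2 rose by 0.97 in papilloma, where it measured 10.45 against 9.48 in normal tissue, and its difference in carcinoma was 0.65 (adjusted p = 0.0962). Meis3 fell by 0.40 on the log2 scale in carcinoma. Mab21l3 rose by 0.39 in carcinoma and by 0.51 in papilloma, far less than Mab21l1, and Mab21l2 passed in no comparison. Gdf5, a ligand related to Gdf7, fell by 0.64 on the log2 scale in papilloma.

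The Pbx and Pknox genes, which like Meis1 encode TALE homeodomain proteins, went both ways. Of 5 measured, 2 passed in carcinoma and 3 in papilloma, where 37.9% and 33.2% of all genes passed. Pknox1 rose by 0.71 in carcinoma and 0.74 in papilloma, and Pknox2 fell (-0.54 and -0.90). Pbx3 rose by 0.56 in papilloma and was lower in carcinoma than in papilloma (difference -0.69), the same order as Msx2.

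Of 18 measured neural progenitor and cortical factors, 1 rose and 4 fell in carcinoma, and 1 rose and 1 fell in papilloma, beside the same shares of all genes. Lhx2, a cortical selector that limits the hem, rose by 0.51 in carcinoma and was 0.65 higher there than in papilloma. The falls in carcinoma were the Notch effector Hes1 (-0.59), Rfx4 (-0.58), Hes5 (-0.19) and Emx2 (-0.19). Emx2 (4.97 in normal tissue) and Rfx4 (6.78) were below the array medians, so their probe sets are not shown to be above background. In papilloma, Hes1 fell by 0.64 on the log2 scale and Sox3 rose by 0.23. Gli3, a repressor of Hedgehog output, was 0.89 higher in carcinoma than in papilloma, and Neurog2 was lower there (difference -0.30). Lhx2 (6.93 in normal tissue and 6.79 in papilloma) and Gli3 (6.73 and 6.40) were close to or below the array medians of 6.79 to 6.90. In those 2 groups they are not shown to be above background, so their rises may be minimum values.

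For the 6 identity genes that passed in any comparison, the genes most alike were those with the highest Pearson correlation over the 15 arrays, which share 3 groups, so this is a description of a pattern. Mab21l1 was most like Cd34 (r = 0.972), Angpt2 (r = 0.947) and Col4a2 (r = 0.945), genes known from vessels and their basement membrane. The endothelial list had means of 8.08 to 8.62 in normal tissue, 8.48 to 8.85 in papilloma and 8.70 to 9.14 in carcinoma. In both tumour types 4 of its 7 genes were higher, and 1 was lower in papilloma. Of all genes, 18.7% were higher in carcinoma and 17% in papilloma, where 16.3% were lower. Between the tumour types 0 of the 7 endothelial genes passed, while Mab21l1 did, beside 11.4% of all genes. The part of endothelium in the Mab21l1 values was not tested. Lmx1a was most like Stmn1 (r = 0.907) and the cell-cycle genes Dscc1 (r = 0.896) and Gmnn (r = 0.889). Dscc1 averaged 4.81, 5.14 and 5.55 in normal tissue, papilloma and carcinoma. These levels were below the array medians, so its probe set is not shown to be above background. The 10 dividing-cell genes averaged 6.98 to 7.13 in normal tissue, 8.47 to 8.93 in papilloma and 9.61 to 10.76 in carcinoma. These averages formed 3 steps without overlap, as the Mab21l1 values did. The part of dividing cells in the Lmx1a and Mab21l1 values was not tested.

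Msx2 was most like Hmgcll1 (r = 0.953), the co-chaperone Dnaja2 (r = 0.924) and Efhc2 (r = 0.917), which were likewise highest in papilloma and lowest in carcinoma. Gdf7 was most like the transcription factor Glis3 (r = 0.944), Dclk2 (r = 0.938) and the planar polarity gene Vangl1 (r = 0.919). Otx2 was most like Sgce (r = 0.908), Ctbp2 (r = 0.903) and Ccdc117 (r = 0.9), and Otx1 was most like Cdc42 (r = 0.911), Cldn10 (r = 0.86) and Tnfrsf4 (r = 0.852). Sgce, Ctbp2 and Ccdc117 were all lowest in papilloma, as Otx2 was, with Sgce at -1.29 there.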

How the data were processed

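Total RNA of 15 tissues was profiled on single-channel arrays. The deposited values are log2 RMA summaries per probe set, made in Affymetrix Expression Console per the submitters' processing notes. Versions and genome build are not given in the sources used here. RMA forces arrays to a shared distribution and compresses dim probe sets. Of 41345 probe sets, 23521 were paired with 1 symbol, and the brightest per gene gave 22180 genes. Arrays have no read depth, and their number limits precision.

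Limma 3.58.1 (R 4.3.3) fitted the group to all 15 arrays (12 residual degrees of freedom, eBayes without trend), with two-sided p-values adjusted by Benjamini-Hochberg over all genes and a threshold of 0.05. The fit was tested on simulated data. Samples came from different mice, per the series' design text. Same-numbered arrays were not paired (correlations of deviations -0.096 to 0.136 over 15 pairs). Members and gene lists were chosen with earlier results of these data known. All members were named. Of each pathway list, up to 3 genes per direction past the threshold were named in each comparison, with every relative that passed. Wnt1, Wnt3a and Mab21l2 were named after their values were seen. Promoters are from RefSeq (GRCm38.p6), and those printed were picked after the results. The closing section gives the alternatives.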

Additional observations from a re-analysis of the deposited data

Results flagged for a closer look

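The change from normal tissue differed between the tumour types for Msx2 and Mab21l1, by the test of carcinoma against papilloma. For Msx2 the difference was -1.27 (95% interval -1.85 to -0.69), with all 5 carcinomas below all 5 papillomas. For Mab21l1 it was 2.06 (95% interval 1.05 to 3.06), with all 5 carcinomas above all 5 papillomas. In the 27 sets of 5 arrays (9 genes in 3 groups), no single array lay far enough from the other 4 to pass Dixon's test at the critical value of 0.71.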

How the results depend on the processing

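The 27 differences (9 genes, 3 comparisons) were recomputed under 27 alternatives, 15 of which left out 1 array. Of 729 values, 690 kept their direction and side of the threshold, 13 lost a call, 23 gained one and 3 changed sign. The sign changes were all Meis1 between the tumour types, which went from -0.06 to 0.05, 0.15 and 0.02 without carcinoma array 1, 2 or 4 and ranged from -0.44 to 0.15 over the 15, passing in none. In papilloma against normal tissue the number of genes past the threshold was 3, with 6 under array weights, 6 with only the groups compared and 5 with an unpooled variance. Between tumour types it was 2, and 0 with an unpooled variance, which called 135 of all genes against 2530. Leaving out single arrays gave 3 to 4 genes in carcinoma, 2 to 4 in papilloma and 2 between tumour types. A replicate block gave 3, 4 and 2 genes, the change being Msx2 in papilloma (0.71, adjusted p = 0.0469), and only 2 of 15 arrays correlated best with their own number. Dim probe sets are compressed by RMA.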
